A study of Mus musculus with 12 samples.

Results

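The common gamma chain cytokine receptors are a family of cytokine receptors that share the signalling subunit Il2rg. Here 8 receptor genes were followed, Il2ra, Il2rb, Il2rg, Il4ra, Il7r, Il9r, Il15ra and Il21r, chosen by their gene symbol on the array out of 30157 gene names. All 8 were among the 18646 genes bright enough to be tested. Where a gene had several probes, the brightest was used. Expression was measured on 12 one-colour microarrays of mouse CD4+ T cell RNA, in 4 groups of 3 arrays. Naive cells came from the spleen of B6.2d2 mice, which carry a transgenic T cell receptor for myelin oligodendrocyte glycoprotein (MOG). Cultured Th17 cells were made in vitro from naive B6.2d2 cells. Transferred CNS cells were such Th17 cells put into lymphopenic Rag1-/- mice and recovered from the central nervous system (CNS) at peak experimental autoimmune encephalomyelitis, a model of multiple sclerosis. Immunised CNS cells were CD4+ cells taken at the same disease stage from the CNS of C57BL/6 mice given MOG35-55 peptide. These immunised mice carried no receptor transgene per the labels. Between the CNS groups, the way disease was induced, the prior culture, the lymphopenic host and the receptor repertoire therefore cannot be told apart. The ages of the animals are not given in the sources used here.

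Each receptor of the family pairs Il2rg with a chain that sets which cytokine is bound. Il2ra and Il2rb form the high-affinity interleukin-2 (IL-2) receptor with Il2rg, Il15ra presents IL-15 to Il2rb and Il2rg, and Il4ra, Il7r, Il9r and Il21r bind the cytokines they are named for. Signals run through Jak1 and Jak3 to STAT proteins, and the family is known in T cells for control of survival, proliferation and differentiation. Naive T cells depend on IL-7, while the high-affinity IL-2 receptor appears after activation and is held constantly by regulatory T cells.

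The readout of each gene is the hybridisation of a 60-base probe, and stretches of 30 bases from the probes on which the results turn are given 5′ to 3′, taken from the array files, with mm9 positions. The first pair belong to the genes with the widest range across groups. The next pair are the brighter and the dimmer Il15ra probe, and the last 3 are shown because they share an alternating T and G run with the brighter one. Capitals mark that run, or the part of it within the 30 bases.
Il2ra: gtggcttctgtttgatctctctcaatgata
Il2rb: gtctattctggggtgggtttttctgtgaag
Il15ra, brighter probe: tatgtaTGTGTGTGTGTGTGTGTatgtaaa
Il15ra, dimmer probe: aaaccatggaaacagtaccaatgactgtga
Madd: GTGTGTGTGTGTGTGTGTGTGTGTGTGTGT
ENSMUST00000152542: tggtttgGTGTGTGTGTGTGTGTacatatg
Il4ra, dimmer probe: tgccagcacTGTGTGTGTGTGccacatgga
The Il2ra probe lies at chr2:11614744-11614803 on the + strand and the Il2rb probe at chr15:78311109-78311168 on the - strand. The brighter Il15ra probe lies at chr2:11655416-11655475 and the dimmer at chr2:11654809-11654868, both on the + strand and 40.6 kb beyond the Il2ra probe in the case of the brighter one. The Il4ra probe used below lies at chr7:132722922-132722981 and the Il21r probe at chr7:132776725-132776784, 53.7 kb apart. Il2rg was read at chrX:98460130-98460189, Il7r at chr15:9435976-9436035 and Il9r at chr11:32089002-32089061. Which exon or untranslated region a probe falls in was not analysed here, for want of an annotation of that build.

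Levels are log2 signals minus the 75th percentile of the array, so that a probe at the 75th percentile has level 0, and a level can be compared between arrays for 1 probe but not between probes. Spots well above background made up 57.1% to 64.9% of each array, and no spot was saturated. The number of arrays limits precision. Differences are given with the standard error (SE) of a limma model over all 12 arrays, with adjusted p-values (Benjamini-Hochberg, 18646 genes) called under 0.05. Defining T cell genes were well above background on every array (9 of 9), and their summed log2 level was 8.62 to 8.85 in naive, 8.35 to 8.71 in cultured, 7.36 to 7.95 in transferred and 8.11 to 8.70 in immunised cells. Macrophage markers summed to 9.69 to 10.25 in the transferred and 9.32 to 10.25 in the immunised group, against 5.75 to 6.90 in naive and 5.06 to 5.84 in cultured cells. Of 16 macrophage genes tested, 15 were higher in each CNS group than in the cultured cells. Over all genes 12.8% were higher in the transferred and 13.7% in the immunised group. C1qa, a complement gene of macrophages, was not well above background on any cultured array, on 1 of 3 naive arrays and on all 6 CNS arrays. Neutrophil markers summed to 9.07 to 9.38 in the immunised group, above the 6.61 to 8.01 of the transferred, 6.81 to 7.83 of the naive and 6.50 to 6.71 of the cultured cells. Of these markers, 4 of 10 were higher in immunised than in transferred cells, where 1.85% of all genes were. In such bulk RNA, fewer cells of a type and less RNA per cell cannot be told apart, and what part RNA of other cells has in the receptor levels of the CNS groups was not tested.

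From naive to cultured cells 4 of 8 receptor genes rose (Il2ra, Il2rb, Il4ra and Il7r) and 0 fell, where 19.7% of all genes tested rose and 20.4% fell. Transferred CNS cells had 6 of 8 lower than the cultured cells and 1 higher (Il15ra), where 12.8% of all genes were higher and 15.5% lower. Immunised CNS cells had 4 of 8 lower than cultured cells (Il2ra, Il4ra, Il9r and Il21r) and 0 higher, beside 13.7% of all genes higher and 17.8% lower. With the other probe of Il4ra, Il9r and Il15ra, added after seeing the data, 3 were lower and 2 higher there, since Il9r and Il15ra were then called higher. Against naive cells, 3 receptor genes were higher and 2 lower in transferred CNS cells (21.2% and 26.6% of all genes), and 2 were higher and 0 lower in immunised CNS cells (20.6% and 27.8%). Between the CNS groups 0 of 8 passed the test, with 1.85% of all genes higher and 1.37% lower in the immunised group. The other probes of Il4ra, Il9r and Il15ra moved further counts. In cultured minus naive cells 4 were then higher and 1 lower, Il9r (-2.24, limma adjusted p = 0.000649). Transferred minus cultured cells had 2 higher and 5 lower, and immunised minus naive cells 3 higher and 0 lower.

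The median receptor difference was 1.23 log2 units from naive to cultured cells, against -0.08 over all genes tested. It was -1.23 for transferred minus cultured cells, against -0.10 over all genes, and -0.94 for immunised minus cultured cells, against -0.17. Transferred minus naive cells gave 0.69, against -0.12, and immunised minus naive cells 0.48, against -0.19. The comparisons share arrays, so these medians are not independent of each other. Il2ra had the widest span of group means, 49.4-fold from lowest to highest, and 4.12% of all genes kept had a wider one. Il2rb spanned 20.7-fold, Il4ra 4.92-fold by its brighter probe, Il21r 3.08-fold, Il7r 2.63-fold and Il2rg, the shared chain, 2.22-fold. The dimmer Il4ra probe had a narrower span, with group means from -2.70 in naive to -1.61 in cultured cells. The place of Il4ra in this order therefore depends on the probe. Il15ra spanned 5.70-fold by its brighter probe, but its probes and those of Il9r disagreed, so neither gene is placed in this order.

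**Figure D1:**
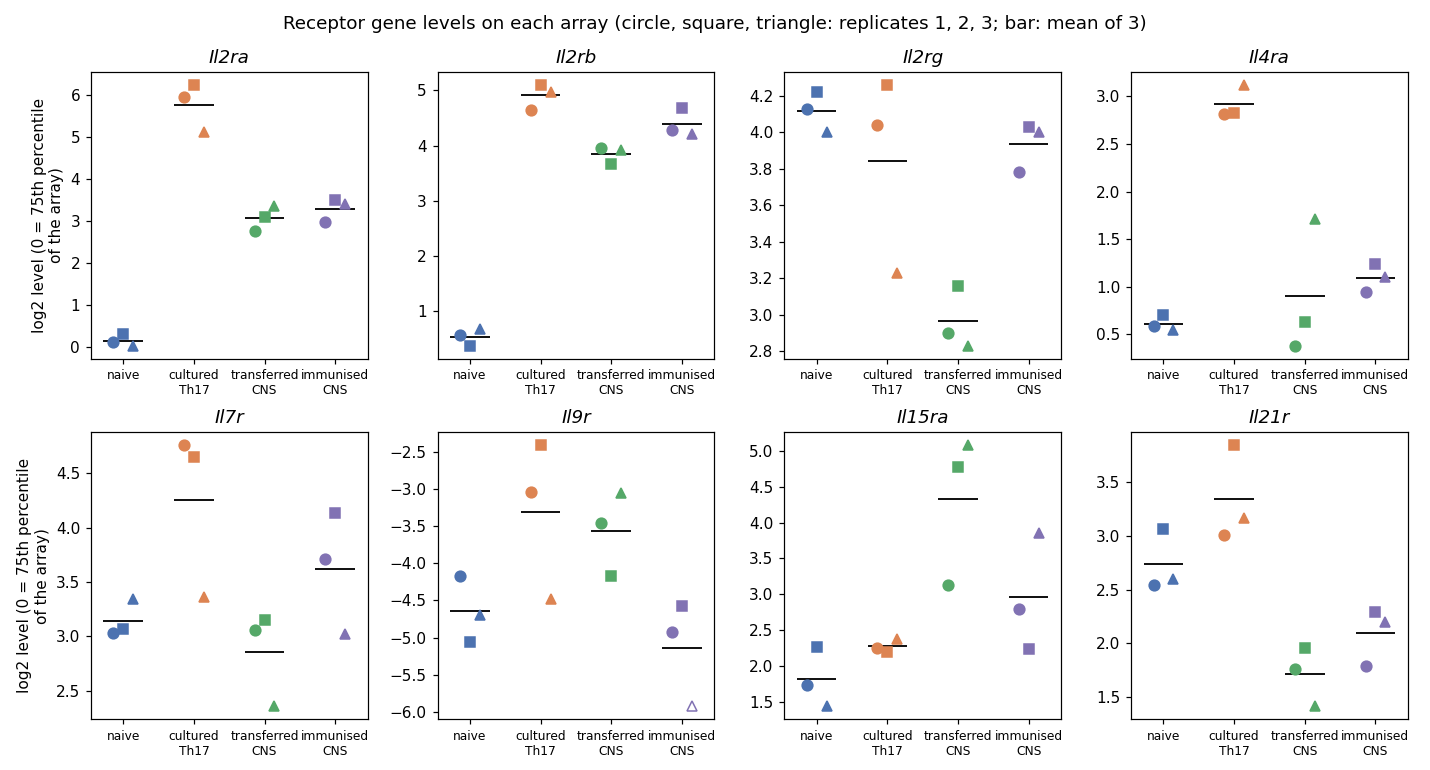
Log2 level (0 is the array's 75th percentile) of the 8 receptor genes on each of the 12 arrays, with a scale of its own for each gene; circles, squares and triangles are replicates 1, 2 and 3, bars are means of 3 arrays, and the open symbol is not well above background. Il2ra and Il2rb were lowest on all 3 naive arrays, and Il15ra, by the brighter of its probes, was highest on average in the transferred CNS group.

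Il2ra, the alpha chain that gives the IL-2 receptor its high affinity, had levels of 0.11, 0.30 and 0.02 on the naive arrays. In cultured Th17 cells they were 5.95, 6.25 and 5.13. Transferred CNS cells had 2.75, 3.09 and 3.35, and immunised CNS cells 2.97, 3.50 and 3.40. The naive arrays were thus lowest and the cultured arrays highest without overlap, and the CNS groups lay between and overlapped each other. Cultured cells exceeded naive cells by 5.63 ± 0.28 (SE, n = 3 per group, limma adjusted p = 5.25e-07), a 49.4-fold difference. On the 3 slides, each of which carried 1 array of every group, this difference was 5.84, 5.94 and 5.10.

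Relative to culture, Il2ra was lower by 2.71 ± 0.28 in the transferred cells (limma adjusted p = 8.96e-05) and by 2.48 ± 0.28 in the immunised cells (limma adjusted p = 0.000133), which were never cultured. It was 7.54-fold above naive cells in the transferred group (2.92 ± 0.28, limma adjusted p = 2.36e-05) and 8.84-fold above them in the immunised group (3.14 ± 0.28, limma adjusted p = 1.41e-05). The CNS groups differed by 0.23 with a 95% interval of -0.40 to 0.86. These 5 calls held under each of the 29 alternative settings tried. Foxp3, the transcription factor of regulatory T cells, which carry Il2ra, had mean levels of -1.08 ± 0.51 in naive, -3.31 ± 0.53 in cultured, -2.50 ± 1.13 in transferred and 1.75 ± 0.38 in immunised cells (SD, n = 3). It was higher in immunised than in transferred CNS cells by 4.25 (limma adjusted p = 0.00196), while Il2ra was not called there. Of the 7 regulatory T cell genes tested, 4 were higher and 2 lower in cultured than in naive cells (19.7% and 20.4% of all genes). In transferred cells 2 were higher and 2 lower, near the shares of 21.2% and 26.6% over all genes. In immunised cells 6 were higher and 0 lower (20.6% and 27.8% of all genes). Higher in immunised than in transferred cells were 2, Foxp3 and Ikzf2 (1.85% of all genes). Ctla4, an inhibitory receptor that activated T cells carry too, rose in culture by 6.36 (limma adjusted p = 3.95e-07) where Foxp3 was lower. The genes most like Il2ra over the 12 arrays were Morn4 and Trim16, each with a root-mean-square (RMS) difference of 0.44 log2 units once each gene was centred on its mean, and Slc16a8 with 0.47.

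Il2rb, the signalling beta chain used by IL-2 and IL-15, stood at 0.58, 0.38 and 0.68 in naive cells. Cultured cells had 4.65, 5.10 and 4.98, transferred CNS cells 3.95, 3.66 and 3.93, and immunised CNS cells 4.29, 4.68 and 4.22. All 9 arrays of the other groups lay above the naive ones, and the transferred arrays were below the cultured ones. The rise in culture was 4.37 ± 0.19 (limma adjusted p = 2.77e-07), 20.7-fold. Transferred cells were lower than cultured cells by 1.07 (-1.07 ± 0.19, limma adjusted p = 0.00211). For immunised cells the difference from culture was -0.51 with a 95% interval of -0.93 to -0.10 and an adjusted p of 0.0596 in limma, which missed the threshold.

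In both CNS groups Il2rb was above naive cells, by 3.30 ± 0.19 in the transferred (limma adjusted p = 8.24e-07) and 3.85 ± 0.19 in the immunised group (limma adjusted p = 3.46e-07), which is 9.85-fold and 14.5-fold. The immunised arrays were each above the transferred ones, but the difference of 0.55 (95% interval 0.14 to 0.97) was not called at an adjusted p of 0.135 in limma. Among all genes kept, AI790276 (RMS difference 0.31), Acot7 (0.32) and Cish (0.34) had the pattern nearest to that of Il2rb. Among the receptor genes its nearest was Il2ra at 0.82.

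Il2rg, the chain all these receptors share, was at 4.13, 4.22 and 4.0 in naive cells and at 4.04, 4.26 and 3.23 in cultured cells. Transferred CNS cells gave 2.90, 3.16 and 2.83 and immunised CNS cells 3.78, 4.03 and 4.0. Only the transferred group stood apart, below every other array. The difference of cultured from naive cells was -0.27 with a 95% interval of -0.81 to 0.27 and was not called. Transferred cells were lower than naive cells by 1.15 (-1.15 ± 0.24, limma adjusted p = 0.00296) and than cultured cells by 0.88 (-0.88 ± 0.24, limma adjusted p = 0.0213). The second of these calls was lost without cultured array 1 (adjusted p = 0.0684), cultured array 2 (0.0684), transferred array 1 (0.0558) or transferred array 3 (0.0711). Immunised cells differed from transferred cells by 0.97 (95% interval 0.43 to 1.51), which was not called at a limma adjusted p of 0.0609. The immunised group differed from culture by 0.09 (95% interval -0.45 to 0.63) and from naive cells by -0.18 (-0.72 to 0.36). Itgb7 (RMS difference 0.21), Donson (0.22) and Stim1 (0.24) were most like Il2rg, and of the receptor genes Il21r was nearest at 0.53 and Il7r next at 0.59. Of the T cell genes, 7 of 9 were lower in transferred than in naive cells (26.6% of all genes) and 4 of 9 lower than in cultured cells (15.5%). Of the same genes, 5 of 9 were lower in immunised than in naive cells (27.8% of all genes), where Il2rg was not called. Their part in the result was not tested apart from the rescaling given below.

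Il4ra, the receptor chain for IL-4, which also serves IL-13 together with Il13ra1, had naive levels of 0.59, 0.70 and 0.55. The cultured arrays read 2.81, 2.82 and 3.12. In transferred CNS cells the values were 0.38, 0.63 and 1.71, and in immunised CNS cells 0.94, 1.24 and 1.10. The cultured group was above all other arrays, and the CNS groups lay near the naive one with a single high array in the transferred group. Il4ra rose by 2.30 ± 0.29 in culture (limma adjusted p = 0.000158), 4.92-fold. It was lower by 2.01 in transferred cells (-2.01 ± 0.29, limma adjusted p = 0.000691) and by 1.82 in immunised cells (-1.82 ± 0.29, limma adjusted p = 0.00108) than in culture. Against naive cells neither CNS group was called: the difference was 0.29 (95% interval -0.36 to 0.94) for transferred and 0.48 (-0.17 to 1.13) for immunised cells. Between the CNS groups it was 0.19 (-0.46 to 0.84).

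A dimmer Il4ra probe, well above background on every array, gave the same order for culture but smaller sizes. It rose by 1.09 ± 0.27 in culture (limma adjusted p = 0.00853) and was lower by 0.98 in immunised than in cultured cells (-0.98 ± 0.27, limma adjusted p = 0.0187). Its difference between transferred and cultured cells was -0.66 and was not called (limma adjusted p = 0.0937). Mvd (RMS difference 0.31) and Pppde2, now named Desi1 (0.33), were among the genes most like the brighter Il4ra probe.

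Il7r, the receptor chain for IL-7, had naive levels of 3.03, 3.07 and 3.34. Cultured cells gave 4.76, 4.65 and 3.36, transferred CNS cells 3.06, 3.15 and 2.36, and immunised CNS cells 3.71, 4.14 and 3.02. On replicate 3 the cultured, transferred and immunised arrays were each the lowest of their group. The rise in culture was 1.11 ± 0.40 (limma adjusted p = 0.0471), but 1.73, 1.57 and 0.02 on the 3 slides. This call was lost without any 1 of the 3 naive arrays, cultured arrays 1 or 2, transferred arrays 1 or 2 or immunised array 1, with adjusted p-values of 0.0581 to 0.154 in limma. It was also lost with quantile normalization (0.94, limma adjusted p = 0.114), in the deposited matrix (0.94, 0.114), without the filter on dim probes (0.0742) and on the 6 arrays alone (0.0842). Transferred cells were lower than cultured cells by 1.40 (-1.40 ± 0.40, limma adjusted p = 0.0241), a call lost without cultured array 1 (0.0826), cultured array 2 (0.0753) or transferred array 3 (0.0920). No other comparison of Il7r was called, and the differences from naive cells were -0.29 (95% interval -1.17 to 0.59) in transferred and 0.48 (-0.40 to 1.36) in immunised cells. Immunised cells differed from cultured cells by -0.63 (-1.51 to 0.25) and from transferred cells by 0.77 (-0.11 to 1.65).

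Transcription factors known to regulate Il7r or naive T cell genes were listed beside it as Il7r regulators. Of these, 6 of 7 were lower and 0 higher in cultured, in transferred and in immunised cells than in naive cells, where 20.4%, 26.6% and 27.8% of all genes were lower. Klf2, which with Foxo1 maintains naive T cell trafficking genes, was lower in culture than in naive cells by 5.21 (-5.21, limma adjusted p = 5.62e-05). Against culture it was higher by 4.11 in transferred (limma adjusted p = 0.000482) and by 4.46 in immunised cells (limma adjusted p = 0.000246). Foxo1 was lower by 0.83 in culture (-0.83, limma adjusted p = 0.0253) and by 2.0 in transferred cells (-2.0, limma adjusted p = 0.000133) than in naive cells. Il7r itself was higher in culture and was not called against naive cells in either CNS group. The list was not split into factors that raise and factors that lower Il7r, so agreement with it was not tested. Ccdc92 (RMS difference 0.21), Abca2 (0.29) and Lime1 (0.31) were most like Il7r.

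Il21r, the receptor chain for IL-21, was at 2.54, 3.06 and 2.60 in naive cells and at 3.01, 3.84 and 3.16 in cultured cells. Transferred CNS cells gave 1.76, 1.96 and 1.42, and immunised CNS cells 1.79, 2.29 and 2.20. Every CNS array was below every naive and cultured array. Relative to culture the gene was lower by 1.62 in transferred (-1.62 ± 0.26, limma adjusted p = 0.00123) and by 1.24 in immunised cells (-1.24 ± 0.26, limma adjusted p = 0.00484). Transferred cells were also lower than naive cells by 1.02 (-1.02 ± 0.26, limma adjusted p = 0.00812), while the immunised difference of -0.64 (95% interval -1.21 to -0.06) was not called at a limma adjusted p of 0.0638. The difference of cultured from naive cells was 0.60 (95% interval 0.03 to 1.18, limma adjusted p = 0.0896) and was not called. Between the CNS groups the difference was 0.38 (95% interval -0.19 to 0.96). Gm5918, now named Ccpg1os (RMS difference 0.22), Zc3hav1 (0.25) and Cdyl2 (0.25) were most like Il21r.

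Il9r, the receptor chain for IL-9, was dim: the lowest signal well above background lay at -5.95 to -5.17 depending on the array. Its levels were -4.17, -5.06 and -4.70 in naive cells, -3.04, -2.41 and -4.48 in cultured cells, -3.46, -4.17 and -3.06 in transferred cells and -4.92, -4.58 and -5.92 in immunised cells, the last not well above background. The groups overlapped except that all cultured and all transferred arrays were above all immunised ones. The single call was a lower level in immunised than in cultured cells, by 1.83 (-1.83 ± 0.53, limma adjusted p = 0.0250), and it was lost without cultured array 1 (0.0694), cultured array 2 (0.0763), immunised array 1 (0.0520) or immunised array 3 (0.0971). The differences that were not called were 1.34 (95% interval 0.15 to 2.52) for cultured minus naive, -0.26 (-1.44 to 0.92) for transferred minus cultured, 1.08 (-0.10 to 2.26) for transferred minus naive, -0.49 (-1.67 to 0.69) for immunised minus naive and -1.57 (-2.75 to -0.39) for immunised minus transferred cells.

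A dimmer Il9r probe disagreed with it. That probe was well above background on 0 of 3 cultured, 2 of 3 naive, 2 of 3 transferred and 3 of 3 immunised arrays, and its measured means were -7.56 in cultured, -5.32 in naive, -5.11 in transferred and -4.42 in immunised cells. It thus had the immunised group highest where the brighter probe had it lowest, and limma called it lower in cultured cells than in naive (adjusted p = 0.000649), transferred (0.000651) and immunised cells (0.00012). No direction is therefore given for Il9r. The genes most like the brighter probe were further away than for the other receptors, ENSMUST00000149909 at an RMS difference of 0.50, 2700008G24Rik, now named Xkr6, at 0.51 and Slc30a4 at 0.51.

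**Figure D2:**
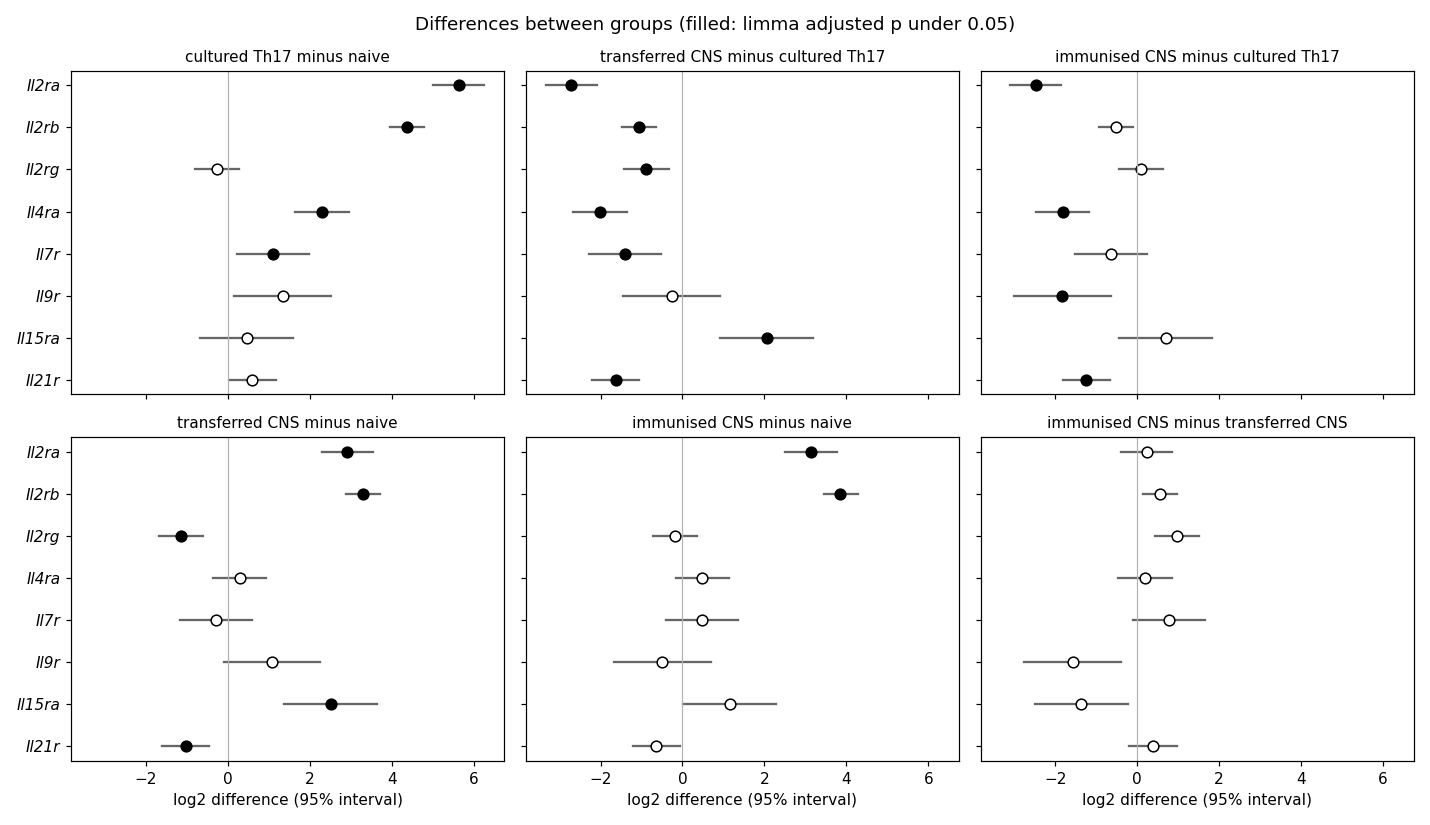
Log2 difference of the 8 receptor genes in the 6 comparisons of groups, with the 95% interval of the limma model as a line; filled symbols have an adjusted p under 0.05. Il2ra and Il2rb lie far to the right of 0 in the 3 comparisons with naive cells, and no symbol is filled between the CNS groups.

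Il15ra, the chain that binds and presents IL-15, gave levels of 1.74, 2.27 and 1.44 in naive cells and 2.25, 2.20 and 2.37 in cultured cells. Transferred CNS cells had 3.13, 4.77 and 5.08 and immunised CNS cells 2.79, 2.24 and 3.86. All transferred arrays were above all naive and cultured arrays, with a spread among them of 1.05 (SD, n = 3) against 0.09 among the cultured arrays. The transferred group exceeded cultured cells by 2.05 ± 0.51 (limma adjusted p = 0.0139) and naive cells by 2.51 ± 0.51 (limma adjusted p = 0.00247). The first of these was lost without transferred array 2 (adjusted p = 0.0513) or transferred array 3 (0.0561), and it was 0.87, 2.57 and 2.72 on the 3 slides. The difference of cultured from naive cells was 0.46 (95% interval -0.68 to 1.59). Immunised cells were not called against any group, with a difference of 1.15 (95% interval 0.01 to 2.28) from naive and 0.69 (-0.45 to 1.83) from cultured cells.

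The pattern of this brighter Il15ra probe was shared almost exactly by probes of other genes that hold an alternating run of T and G, among them those of Madd and ENSMUST00000152542 printed above. The run has 17 bases in the Il15ra probe. The dimmer Il4ra probe, with a run of 12 bases, did not share the pattern, at an RMS difference of 1.11. The 3 genes nearest to the brighter Il15ra probe were Madd at an RMS difference of 0.11, Arl6ip6 at 0.12 and ENSMUST00000152542 at 0.12. These were closer than the nearest gene of any other receptor, and their probes hold runs of 38, 30 and 16 bases. Of all other probes kept with a run of 20 bases or more, 52 of 52 (100%) lay within an RMS difference of 0.5 of the Il15ra probe. With a run of 14 to 19 bases 28 of 30 (93.3%) did, with 8 to 13 bases 30 of 179 (16.8%), and with shorter runs 9 of 24072 (0.0374%). This tally was chosen after seeing the data, and the probes of the 3 nearest genes are counted in it. The probes with 20 bases or more had median centred levels of -0.98 in naive, -0.51 in cultured, 1.57 in transferred and -0.06 in immunised cells. The longest run in the 7 other receptor genes' probes used here was 5 bases, in Il21r.

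**Figure D3:**
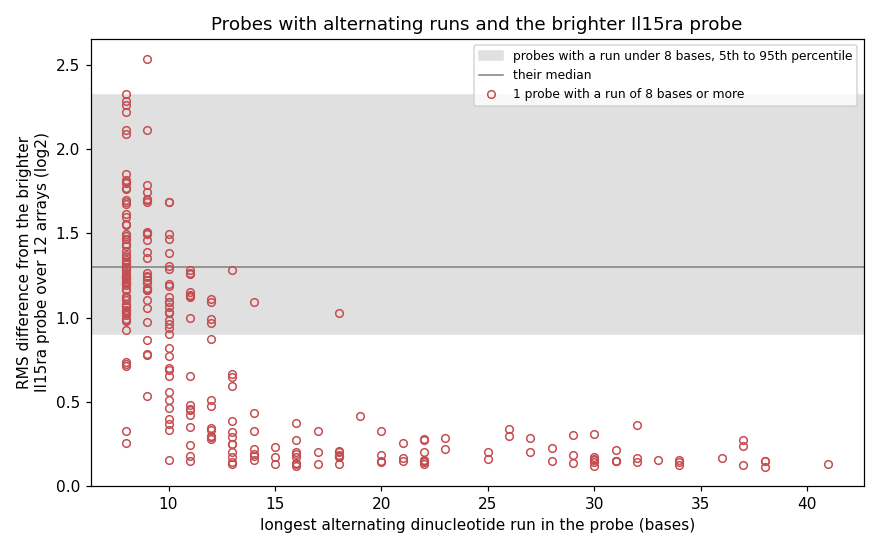
RMS difference in log2 units from the brighter Il15ra probe over 12 arrays, against the longest alternating T and G run of the probe in bases; each circle is 1 probe with a run of 8 bases or more, and the band and line are the 5th to 95th percentile and median of the probes with shorter runs. From 14 bases on, 80 of the 82 circles lie below 0.5, under the band, which spans 0.90 to 2.32.

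The dimmer Il15ra probe, whose longest such run is 4 bases, gave another order of the CNS groups. It read -2.53, -1.67 and -2.53 in naive cells, -2.24, -2.16 and -2.56 in cultured cells, -1.03, -0.85 and -1.80 in transferred cells and -0.77, -1.31 and -0.32 in immunised cells, all well above background. Immunised cells were highest on average, and every immunised array was above every naive and cultured one. By this probe Il15ra was higher than in culture by 1.09 ± 0.34 in transferred (limma adjusted p = 0.0345) and by 1.52 ± 0.34 in immunised cells (limma adjusted p = 0.00663). It was higher than in naive cells by 1.01 ± 0.34 (limma adjusted p = 0.0299) and by 1.45 ± 0.34 (limma adjusted p = 0.00531). The difference between the CNS groups was 0.43 in favour of immunised cells and was not called (limma adjusted p = 0.510), against -1.36 by the brighter probe. The patterns of both Il15ra probes differed from each other by an RMS of 0.90, and Abhd12 (0.27) and Pxn (0.31) were among the genes most like the dimmer one. The brighter probe shared its pattern with probes of other genes that hold alternating runs, and is not taken as a second measure of Il15ra. By the dimmer probe Il15ra was called higher in both CNS groups than in naive and cultured cells. The brighter one was called only in the transferred group. Macrophage markers were higher in the same groups, as given above, and their part in the level of Il15ra was not tested.

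**Figure D4:**
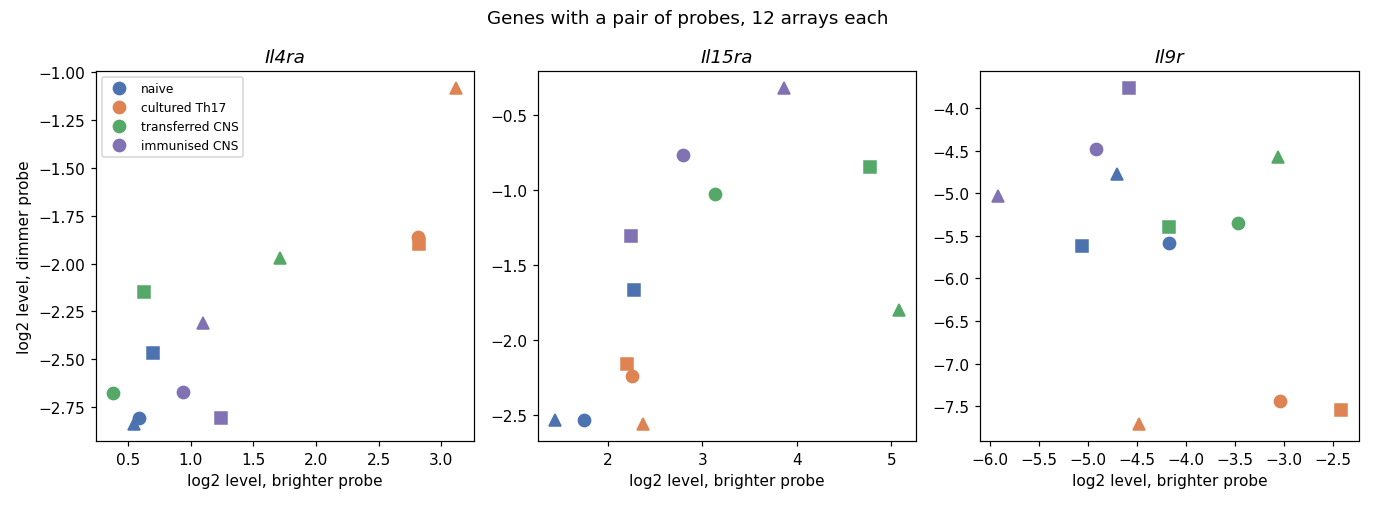
Log2 level of the dimmer probe against that of the brighter probe for the 3 receptor genes with a pair of probes, on 12 arrays; colours are groups and circles, squares and triangles are replicates 1, 2 and 3. The cultured arrays are high on both axes for Il4ra, and for Il9r they are lowest by the dimmer probe, at a mean of -7.56.

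How far the receptors of the transferred group lay below culture changed with the scaling. When each array was centred on the 9 T cell genes in place of its 75th percentile, the median of all genes shifted by 0.87 for transferred minus cultured, by 0.99 for transferred minus naive and by -0.72 for immunised minus transferred cells. The share of called genes that were higher then moved from 45.3% to 93.0%, from 44.4% to 90.1% and from 57.4% to 5.1% in these comparisons. It moved from 43.5% to 62.3% for immunised minus cultured and from 42.6% to 61.8% for immunised minus naive cells. On that scale Il2ra remained called lower in transferred than in cultured cells. Il2rb (-0.20, limma adjusted p = 0.598), Il2rg (-0.01, 0.986), Il4ra (-1.14, 0.0572), Il7r (-0.53, 0.168) and Il21r (-0.75, 0.0624) were no longer called there. Against naive cells Il2rg (-0.16, limma adjusted p = 0.649) and Il21r (-0.03, 0.936) were no longer called, whereas Il4ra (1.28, limma adjusted p = 0.0300) and the brighter Il9r probe (2.07, 0.0041) were called higher in transferred cells. Between the CNS groups the brighter probes of Il9r (-2.29, limma adjusted p = 0.0161) and Il15ra (-2.08, 0.0361) were called lower in immunised cells.

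Of the 6 cytokines that use these receptors, Il2, Il4, Il15 and Il21 could be tested. In cultured against naive cells Il21 was called higher and Il2 and Il15 lower (19.7% and 20.4% of all genes). The Il15 call was between signals not well above background in either group. Of the 4, 4 were higher in transferred and 3 in immunised than in naive cells, and 0 lower (21.2% and 20.6% of all genes were higher). Il4 and Il15 were well above background on all 3 arrays only in the CNS groups. They were thus tested only because they were bright there, and these counts are not a like comparison with the shares over all genes. Il2 and Il21 were well above background on all naive arrays. Il2 was at -4.41, -5.30 and -3.78 in naive cells and -7.17, -5.79 and -7.84 in cultured cells, where 1 of 3 arrays was well above background. It reached -0.35, 0.51 and 1.07 in transferred and -0.76, -0.72 and -1.04 in immunised CNS cells. All CNS arrays were above all others, with Il2 higher than in naive cells by 4.91 in transferred (limma adjusted p = 5.28e-05) and 3.66 in immunised cells (limma adjusted p = 0.000374). Il2 and its receptor chain Il2ra thus had opposite orders in cultured and CNS cells.

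Il21 was at -4.36, -3.32 and -2.32 in naive cells, 3.59, 4.84 and 3.90 in cultured cells, 4.26, 4.17 and 4.0 in transferred cells and -0.25, 0.30 and -0.44 in immunised cells. Cultured and transferred arrays overlapped, and immunised cells lay between these and the naive ones. It rose by 7.44 in culture (limma adjusted p = 1.85e-06) and was lower by 4.27 in immunised than in transferred cells (-4.27, limma adjusted p = 0.00109), while its receptor Il21r was not called between these groups. Il15 was not well above background on any naive or cultured array. In transferred cells it was at least 2.37-fold and in immunised cells at least 6.26-fold above the cultured group, these bounds being taken against the lowest signal well above background or the probe's own if higher. The bounds were not tested. The tests were of the measured differences, 3.47 and 4.87 (limma adjusted p = 3.26e-05 and 3.7e-06). Il15 was higher in immunised than in transferred cells by 1.40 (limma adjusted p = 0.0374).

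Il4 varied widely between cultured arrays, at -1.46, -7.09 and 2.88, and was called only in transferred against naive cells (limma adjusted p = 0.0091), where 1 of 3 naive arrays was well above background. Il7 was not well above background on any array, and Il9 only on transferred array 3, so neither was tested. Of the related receptor chains Il13ra1, Il13ra2 and Crlf2, Il13ra2 was too dim to be tested. Il13ra1, well above background on 1 of 3 cultured arrays, was at least 10.2-fold higher than in culture in transferred cells and at least 18.8-fold higher in immunised cells, by bounds taken as for Il15. Here too the tests were of the measured differences, 4.35 and 5.23 (limma adjusted p = 0.000975 and 0.000271). Crlf2, which joins Il7r in the receptor for thymic stromal lymphopoietin, was higher than in naive cells by 1.17 in cultured, 1.66 in transferred and 1.64 in immunised cells (limma adjusted p = 0.00277, 0.000255 and 0.000288).

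Downstream of the receptors, 2 of 7 Janus kinase and STAT genes were higher and 2 lower in cultured than in naive cells, with a list median of 0.17. The shares over all genes, 19.7% and 20.4%, were near these counts. Jak3, the kinase that binds Il2rg, rose by 1.71 (limma adjusted p = 0.00396) and was lower in transferred (-1.49, limma adjusted p = 0.0127) and immunised cells (-1.38, limma adjusted p = 0.0164) than in culture. Jak1, which binds the partner chains, went the other way in culture (-1.24, limma adjusted p = 0.00189) and differed by 0.01 between transferred and cultured cells. In transferred cells 4 of the 7 were lower and 1 higher than in naive cells, with a median of -0.43, and in immunised cells 1 was lower and 1 higher, with a median of -0.44. Over all genes 26.6% were lower and 21.2% higher in the first of these, and 27.8% and 20.6% in the second.

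Of 4 feedback inhibitors induced by these cytokines, 3 were higher and 0 lower in cultured than in naive cells (19.7% and 20.4% of all genes), with a list median of 3.29, and Socs3 was not called (0.67, limma adjusted p = 0.0675). Socs2 rose by 5.60 (limma adjusted p = 3.78e-06), Cish by 4.62 (limma adjusted p = 8.3e-07) and Socs1 by 1.96 (limma adjusted p = 0.000207). Cish, a gene induced by STAT5, was also higher than in naive cells by 3.98 in transferred (limma adjusted p = 1.74e-06) and 4.20 in immunised cells (limma adjusted p = 1.28e-06). Socs1 was lower than in culture in both CNS groups, by 1.65 and 1.61 (-1.65 and -1.61, limma adjusted p = 0.00108 and 0.00111), an order like that of Il2ra and Il4ra.

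Of 11 survival and growth genes known to respond to the family, 8 were higher and 1 lower in cultured than in naive cells (19.7% and 20.4% of all genes), with a list median of 1.18. Gzmb, a cytotoxic granule protease, rose by 4.34 (limma adjusted p = 0.000403), Bcl2l1, a survival factor, by 1.66 (limma adjusted p = 0.000268), and Ccnd3, a cyclin, by 1.55 (limma adjusted p = 2.89e-05). The lower one was Prf1, the pore-forming protein that acts with granzymes (-1.26, limma adjusted p = 0.00843). In transferred cells 4 were higher and 1 lower than in naive cells, and in immunised cells 3 were higher and 3 lower, with list medians of 0.04 and -0.16. Over all genes 21.2% were higher and 26.6% lower in transferred and 20.6% higher and 27.8% lower in immunised cells, near the counts of the list in the latter. Bcl2l1 was above naive cells by 2.57 in transferred (limma adjusted p = 1.32e-05) and 2.41 in immunised cells (limma adjusted p = 2.03e-05). Ccnd3 was lower than in culture by 1.77 and 1.45 in these groups (-1.77 and -1.45, limma adjusted p = 2.48e-05 and 6.89e-05). Between the CNS groups Gzmb was the single gene of this list called, higher in immunised cells by 2.89 (limma adjusted p = 0.0383).

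**Figure D5:**
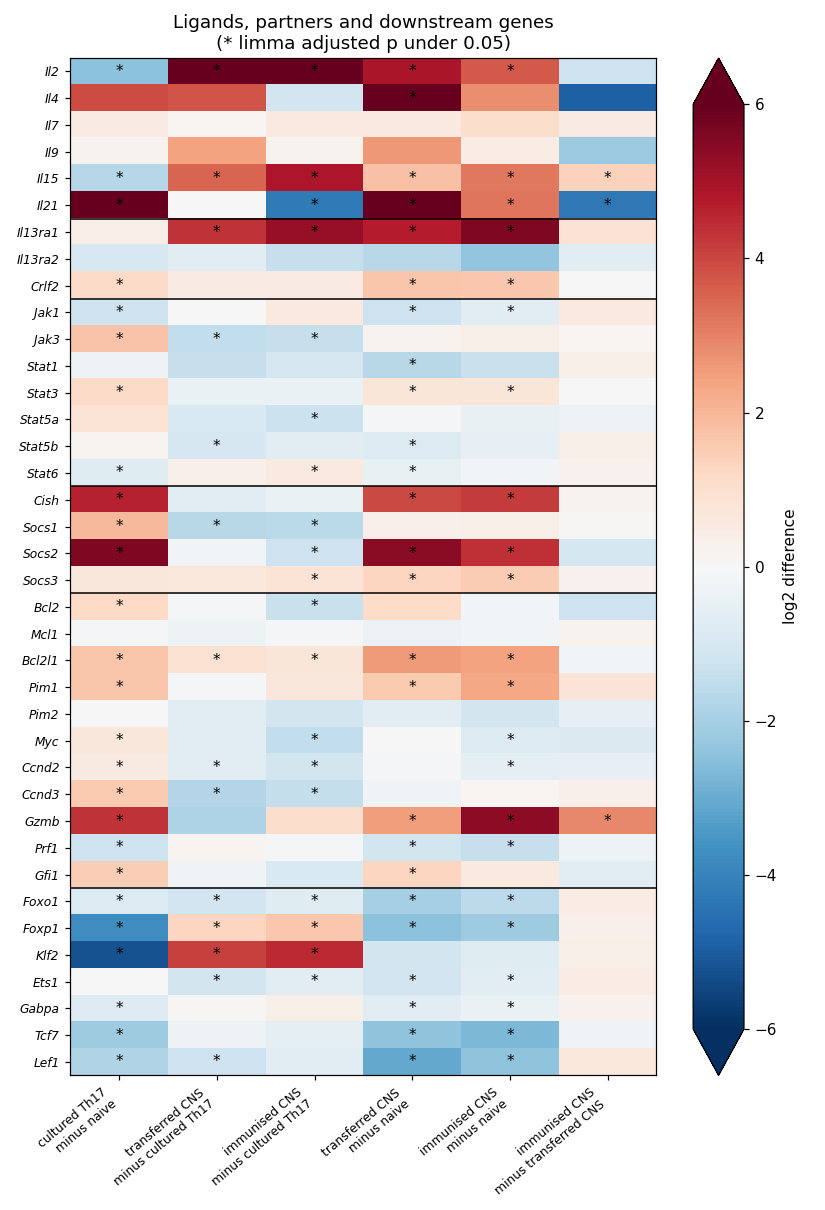
Log2 difference in the 6 comparisons for 38 ligands, related receptors, Janus kinase and STAT genes, feedback inhibitors, survival and growth genes, and Il7r regulators, separated by lines in that order; red is higher in the first group named, colours end at 6 and -6, and asterisks mark adjusted p under 0.05. Il7, Il9 and Il13ra2 were too dim to be tested, and Cish and Socs2 are red against naive cells in all 3 other groups.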

How the data were processed

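Total RNA of CD4+ T cells from 3 independent experiments, per the series text, was extracted, amplified and labelled with Cy3, per the labels' protocols. The intensity values of each spot were made by the authors under protocol GE1_107_Sep09, in version 10.7.3.1 of the Agilent Feature Extraction software, on an mm9 design, per the file headers. The deposited matrix of intensity values, whose normalization is not stated, served as an alternative. It gave nearly the results of quantile normalization, with 7827 against 7838 genes called in cultured minus naive cells. These settings are therefore not separate checks.

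Control and outlier spots were left out and spots of a probe averaged. From the log2 processed signal of a probe the 75th percentile of all non-control probes on that array was subtracted. The brightest probe stood for a gene. Testing was limited to the 18646 genes with signals well above background throughout some group, that is on its 3 arrays. A single limma 3.58.1 model in R 4.3.3 held the 12 arrays (lmFit, contrasts, eBayes, 8 residual and 2.485 prior degrees of freedom), called at a Benjamini-Hochberg adjusted p under 0.05, two-sided. The script was tested on simulated data. Figures used matplotlib 3.10.9.

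A group always had the same position on the 3 slides, which each carried 4 arrays, so position and group cannot be told apart. Of 18 pairs of arrays with 1 replicate number, 4 correlated above 0.1 in their deviations from group means (range -0.20 to 0.20), so the numbers were not taken to pair samples. Whether each group's replicates came from separate animals is not given, and p-values measure the spread between these arrays.

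The receptor genes, 18 gene lists and markers were chosen with earlier results of these data known. Named genes were all receptor genes, the ligands, the 3 genes of lowest RMS difference to each receptor gene, and the called list members with the largest rise or fall in a comparison; Cish, Foxo1 and Foxp3, and the genes like the dimmer Il15ra probe, were chosen after their values were seen. A few of the most alike genes are not reported here. Alternatives covered scaling, background correction, the deposited matrix, filters, choice of probe, slide as a block, samples in the fit, prior, array weights, thresholds and each array left out; another probe for Il4ra, Il9r and Il15ra and leaving out probes with alternating runs of 14 bases or more were added after seeing the data.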

Additional observations from a re-analysis of the deposited data

How the results depend on the processing

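The counts of called receptor genes were recomputed under 29 alternatives. For transferred minus cultured cells (7 called) scaling to the T cell genes gave 2, a threshold of 0.01 gave 4, and leaving out 1 array gave 4 to 7, with the lowest, 4, without transferred array 3. Of all 18646 genes, 5273 were called there in the main fit. The calls over all genes were 7966 with that scaling, 2691 at 0.01 and 3646 without transferred array 3. For immunised minus naive cells (2 called) the fit on only the 6 arrays compared and the fit with array weights each gave 4. Over all genes these fits called 9765 and 11746, against 9024 in the main fit. For immunised minus transferred cells (0 called), scaling to the T cell genes gave 2, normexp background correction 1, the 6 arrays alone 1, a trended robust prior 1, array weights 5, and leaving out 1 array 0 to 1, the 1 being found without cultured array 2, cultured array 3 or transferred array 1. Over all genes the calls there were 601 in the main fit, 4961 with scaling to the T cell genes and 5788 with array weights. They were 687 with normexp, 798 on the 6 arrays alone and 647 with the trended prior. Without the named arrays they were 635, 1282 and 632. The receptor counts here are not read as a change particular to the receptors. The 6 arrays alone also ended the calls of Il2rg (adjusted p = 0.0974) and Il7r (0.0731) in transferred minus cultured and of Il9r (0.0726) in immunised minus cultured cells in limma. The other counts stayed within 1.5 times of the reported ones. With the slide as a replicate block the counts were 5, 7, 4, 5, 3 and 0 in the order of the report, the added call being Il21r in cultured (0.60, limma adjusted p = 0.0327) and immunised cells (-0.64, limma adjusted p = 0.0216) against naive cells, and it changed no other receptor call. With that block the calls over all genes were 7175, 5079, 5615, 8679, 8882 and 558. Of 12 arrays, 1 correlated best with its own replicate number in every other group. 

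Several differences changed sign, nearly all of them differences not called. Scaling to the T cell genes turned Il9r in transferred minus cultured cells (0.62), Il7r in transferred minus naive cells (0.70), Il2rg in immunised minus naive cells (0.09) and, in immunised minus transferred cells, Il2ra (-0.49), Il2rb (-0.16), Il4ra (-0.53) and Il21r (-0.33). That scaling moved the median of all genes by 0.12, 0.15 and 0.27 in cultured minus naive, immunised minus cultured and immunised minus naive cells, and scaling to the array median moved it by 0.11 and -0.11 in the first of these and in transferred minus cultured cells. The mean of all probes turned Il9r in cultured minus naive (-0.45), transferred minus cultured (1.10), immunised minus cultured (0.65) and immunised minus naive cells (0.20), and Il4ra between the CNS groups (-0.07). Taking the probe of largest SD, or the other probe, turned Il9r in these same comparisons (-2.24, 2.46, 3.14 and 0.90) and between the CNS groups (0.68). The other probe also turned Il4ra (-0.33) and Il15ra (0.43) between the CNS groups and Il15ra in cultured minus naive cells (-0.07), and leaving out probes with alternating runs gave the same values for Il15ra (-0.07 and 0.43). Array weights turned Il2rg in immunised minus cultured cells (-0.23) and Il2ra between the CNS groups (-0.05). Leaving out 1 array gave ranges that cross 0 for Il2rg in cultured minus naive (-0.48 to 0.03) and immunised minus cultured cells (-0.21 to 0.30), Il9r in transferred minus cultured cells (-0.84 to 0.20), and Il4ra in transferred minus naive cells (-0.11 to 0.55) and between the CNS groups (-0.08 to 0.59). The cause of these changes was not tested. Low signal over background limits Il9r and its second probe.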
